A study of Mus musculus with 6 samples.

Results

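Histone genes were examined in 6 RNA sequencing libraries from mice. The genes were taken from the expression table by symbol: Hist1h to Hist4h genes, which lie in the clusters of replication-dependent histone genes, and H2af and H3f genes, most of which encode replacement variants, without symbols marked as pseudogenes by -ps. This gave 69 of 23494 genes, 59 of the Hist clusters and 10 of the H2af and H3f families. The 3 libraries labelled vehicle came from female wild type C57BL/6 mice that carried subcutaneous B16F10 melanoma, a transplantable mouse line, and received phosphate-buffered saline. The 3 libraries labelled rMANF came from mice of the same strain, sex, genotype and tumour model that received recombinant MANF (mesencephalic astrocyte-derived neurotrophic factor, a stress-induced factor of the endoplasmic reticulum that cells can secrete) at 2 µg/kg by daily intraperitoneal injection. Treatment began at a mean tumour volume of about 60 mm3 with 8 mice randomised to each arm. The labels number 3 biological replicates in each arm without naming the animals, so p-values measure the spread between these samples. Heart is the labelled tissue, and age is not stated. Values are TPM, a share of each library corrected for transcript length, so the sequencing depth is unknown.

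Histones wrap DNA into nucleosomes, each built from the core histones H2A, H2B, H3 and H4 and closed by a linker histone of the H1 type. Replication-dependent histone genes lie in clusters, mostly lack introns and are transcribed in S phase, and their mRNAs characteristically end in a conserved stem-loop bound by the protein Slbp in place of a poly(A) tail. Some of them are also made as polyadenylated transcripts that run past the stem-loop, above all in cells that have left the cell cycle. Replacement variants such as H3.3 and H2A.Z are made throughout the cell cycle as ordinary polyadenylated mRNAs and enter chromatin outside replication.

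The libraries did not carry the profile of heart muscle that their tissue label gives. The 11 heart muscle markers summed to 8.26 to 68.7 TPM per library, with cardiac actin Actc1 at 0.905 TPM or below and phospholamban (Pln) at 0.0432 TPM or below. Of the melanoma markers Pmel, Mlana, Tyr, Dct and Tyrp1 only Pmel had a row, at 0 to 0.341 TPM. Markers of dividing cells, 11 genes, summed to 1348 to 1463 TPM in the vehicle libraries and 1331 to 1361 TPM in the rMANF libraries. Skeletal muscle markers (10 genes) came to 109, 1212 and 27.2 TPM across vehicle replicates 1, 2 and 3 but 7.04 to 19.2 TPM with rMANF, and macrophage markers (10 genes) to 2885 to 3210 against 1642 to 2280 TPM, without overlap in either case. T and NK cell markers (6 genes) summed to 29.7 to 83.4 TPM with vehicle and 11.8 to 26.6 TPM with rMANF, also without overlap. Sums of fibroblast markers (139.8 to 206 against 98.93 to 140.4 TPM) and endothelial markers (36.04 to 54.3 against 53.6 to 67.0 TPM) overlapped narrowly. Of the 5 fibroblast markers 4 lay lower with rMANF at an unadjusted p under 0.05 (limma), beside 6.63% of all tested genes, and Pdgfra lay higher. All 5 endothelial markers lay higher on average, 1 of them at that threshold, beside 13.9% of all tested genes. In bulk RNA fewer cells of a type and less RNA per cell cannot be told apart. The part of these differences in the histone values was not tested, and every direction below rests on the labels.

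The stem-loop is shown first because it sets the replication-dependent genes apart from the variants. In GENCODE M21 transcripts (GRCm38, the assembly called mm10) the 16-letter histone stem-loop, searched on the transcript strand, was found in 42 of the 59 Hist genes (71.2%), in 1 of the 10 H2af and H3f genes and in 0.114% of all other genes. It began 25 to 62 bases after the last base of the annotated coding sequence, with a median of 35. Only annotated transcripts were searched, so a gene model that ends before its stem-loop shows no match. The 15 Hist genes with no match and a transcript under 1000 bases had a median length of 393 bases. Those with a match and under 100 bases after it had a median of 483.5 bases. No match therefore does not mean that the gene lacks a stem-loop. The windows below hold the stem-loop in capitals and 5 bases on each side, 5′ to 3′ on the gene's strand, for Hist genes of each type whose values are given below, among them Hist1h3g and Hist1h4a, whose forms occurred in 1 gene each, and for the variant H2afx.
Hist1h1c, chr13:23739507-23739532, plus strand: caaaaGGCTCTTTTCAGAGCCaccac
Hist1h2ae, chr13:23570663-23570688, minus strand: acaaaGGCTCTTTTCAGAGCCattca
Hist3h2a, chr11:58955167-58955192, plus strand: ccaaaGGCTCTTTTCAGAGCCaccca
Hist1h2bg, chr13:23571838-23571863, plus strand: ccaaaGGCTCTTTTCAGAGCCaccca
Hist1h3g, chr13:23535884-23535909, plus strand: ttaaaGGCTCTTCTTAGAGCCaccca
Hist1h4h, chr13:23531453-23531478, plus strand: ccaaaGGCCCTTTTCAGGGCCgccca
Hist1h4n, chr13:21831793-21831818, minus strand: ctaaaGGCCCTTTTCAGGGCCatcca
Hist1h4a, chr13:23760795-23760820, minus strand: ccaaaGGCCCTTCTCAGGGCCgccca
H2afx, chr9:44335235-44335260, plus strand: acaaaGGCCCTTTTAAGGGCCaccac
The form followed the histone type. All 31 stem-loops of H1, H2A, H2B and H3 genes of the clusters opened with GGCTC and all 11 of H4 genes with GGCCC or GGTCC. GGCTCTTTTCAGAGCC was the commonest form, in 24 genes, followed by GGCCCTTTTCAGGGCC in 6 genes. H2afx, the only variant gene with a match, carried a form opening with GGCCC that no Hist gene held.

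The cluster genes and the variants also differed in their gene models and in where they lie. Of the 59 Hist genes 48 lay in the Hist1 cluster on chromosome 13 (21715763 to 23764406, GRCm38), 8 in Hist2 on chromosome 3 (96219865 to 96270132), 2 in Hist3 on chromosome 11 and 1, Hist4h4, on chromosome 6. A single exon was annotated for 56 of them, against 3 of the 10 H2af and H3f genes. Median transcript length was 539 bases for the Hist genes and 1732 bases for the others, and median GC content 57.9% and 51.0%. The symbols H2afy3, H3f3c and Hist1h2aj are annotated as pseudogenes. Another annotated gene overlaps 21 of the 59 Hist genes and 6 of the 10 H2af and H3f genes. The library kit does not mark strand, so reads of antisense partners, such as those covering 141 bases of H2afx and of H2afj, cannot be told apart from those of the histone gene.

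The variants held most of the histone TPM in every library. Summed TPM of the 10 H2af and H3f genes was 2178, 2286 and 2296 in vehicle replicates 1 to 3 and 2495, 2399 and 2132 in rMANF replicates 1 to 3, and that of the 59 Hist genes 142, 225 and 261 against 328, 242 and 348. The Hist genes thus held 6.11% to 14.0% of all histone TPM. Whether RNA without a poly(A) tail was captured is not stated, so this share describes the libraries and not histone mRNA in the tissue. The median mean level over the 6 libraries was 1.37 TPM for a Hist gene and 88.3 TPM for an H2af or H3f gene. Only 4 of the 59 Hist genes averaged 10 TPM or more (Hist1h1c, Hist1h4k, Hist1h2bc and Hist1h4h), 33 averaged 1 to 10 TPM and 22 less than 1 TPM. Of the H2af and H3f genes 7 averaged over 10 TPM and 3 less than 1 TPM.

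**Figure D1:**
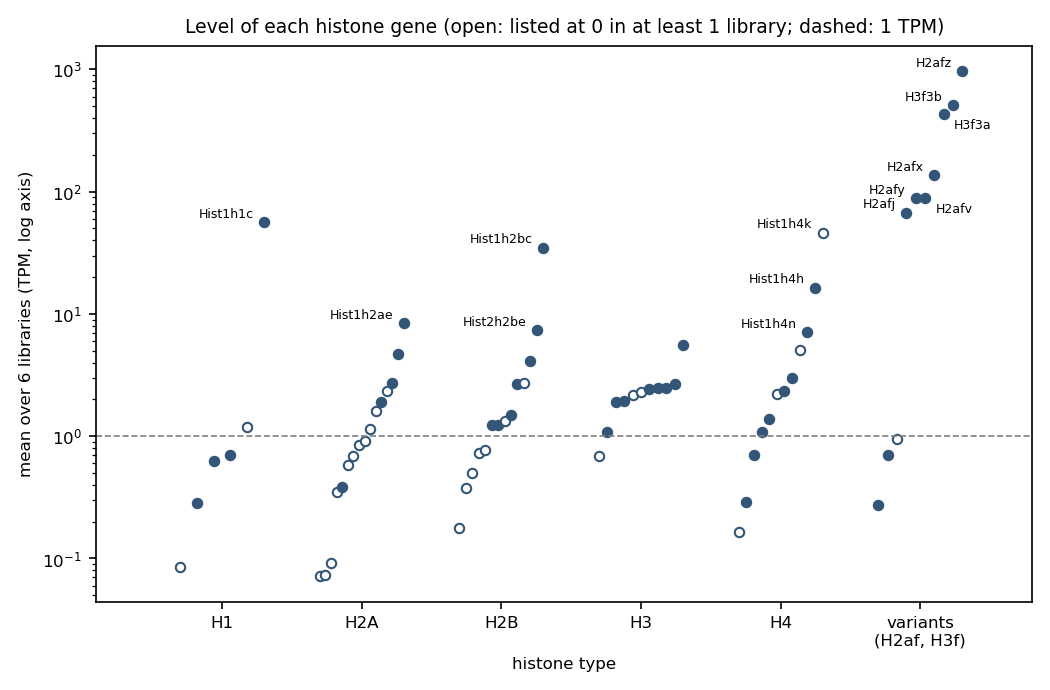
Mean TPM over the 6 libraries (log axis) for each of the 69 histone genes by type, with open symbols for genes listed at 0 in at least 1 library and a dashed line at 1 TPM. The 7 abundant variants stand above every Hist gene, and Hist1h1c leads the Hist genes at 56.5 TPM.

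H2afz, which encodes the H2A.Z.1 variant found at promoters, was the most abundant histone gene, at 877, 1039 and 990 TPM in the vehicle libraries and 1059, 1016 and 862 TPM in the rMANF libraries. Its values interleaved, and the log2 difference, rMANF minus vehicle on log2(TPM + 1), was 0.01 ± 0.11 (SE), with a 95% interval of −0.23 to 0.26 (limma, Benjamini-Hochberg adjusted p = 0.959). It supplied 66.9% to 74.0% of the TPM of the H2A-type genes among the 69. H2afv, which encodes the sister protein H2A.Z.2, measured 110, 79.8 and 82.7 TPM against 86.2, 84.4 and 86.3 TPM (−0.07 ± 0.13; limma, adjusted p = 0.798). Vehicle replicate 1 was the highest of these 6 and also had the lowest ratio of H2afz to H2afv, 7.94 against 9.99 to 13.0 in the other libraries.

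H3f3a and H3f3b, which encode the same H3.3 protein from separate loci, came next. H3f3a stood at 410, 411 and 475 with vehicle against 459, 464 and 370 TPM with rMANF (log2 difference −0.01 ± 0.11, 95% interval −0.27 to 0.25). H3f3b stood at 515, 488 and 452 with vehicle against 578, 529 and 501 TPM with rMANF (0.14 ± 0.09, interval −0.06 to 0.35). The groups overlapped for both genes, and neither passed limma's test (adjusted p = 0.977 and 0.399). Together they held 96.7% to 98.2% of the TPM of the H3-type genes among the 69, which do not include Cenpa.

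H2afx, whose product is phosphorylated around DNA breaks, lay higher in every rMANF library than in any vehicle library, at 120, 124 and 134 with vehicle against 150, 137 and 149 TPM with rMANF (126 ± 7.09 and 145 ± 7.70, SD, n = 3 each). The log2 difference was 0.20 ± 0.08 (SE) and did not pass the test over all genes (limma, Benjamini-Hochberg adjusted p = 0.215, unadjusted p = 0.0379). H2afx has a transcript GC content of 62.3%, the highest of the variants, and once each library's trend of expression on GC content was removed its difference was −0.05 and the groups overlapped. H2afj, a minor H2A variant gene with no stem-loop match, also showed no overlap, at 51.9, 60.4 and 68.0 TPM against 72.1, 78.2 and 73.8 TPM (60.1 ± 8.06 and 74.7 ± 3.14). Its log2 difference was 0.32 ± 0.11 (limma, Benjamini-Hochberg adjusted p = 0.169, unadjusted p = 0.0201). It was 0.13 without vehicle replicates 1 and 2 together, the vehicle libraries with the most skeletal muscle RNA, a setting that leaves 1 vehicle library. With the GC trend removed the groups of H2afj overlapped too.

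H2afy, which encodes macroH2A1, a large variant linked to silent chromatin, stood at 89.8, 81.4 and 92.9 TPM against 87.9, 89.1 and 88.5 TPM (0.01 ± 0.08, 95% interval −0.18 to 0.20). H2afy2, the gene of macroH2A2, had the lowest mean of the 10 H2af and H3f genes, at 0.0831 to 0.403 TPM per library. The 3 genes of the family under 1 TPM were H2afy2 and the annotated pseudogenes H2afy3 and H3f3c. The groups of the latter 2 did not overlap, higher with rMANF for H2afy3 (0.457 to 0.576 against 0.670 to 1.05 TPM) and lower for H3f3c (0.738 to 2.10 against 0 to 0.730 TPM). With no filter on level 19.0% of all genes had no overlap. H3f3c shares 91.3% of its 31-base words with other genes, chiefly H3f3a.

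Among the 6 H1 genes of the Hist1 cluster Hist1h1c, the gene of H1.2, was by far the most abundant. It measured 39.8, 52.1 and 46.9 with vehicle against 96.3, 56.5 and 47.6 TPM with rMANF and made up 94.4% to 95.7% of the TPM of the 6 H1 genes. The rMANF group was spread by replicate 1, its values overlapped those of the vehicle group, and the log2 difference of 0.46 ± 0.24 (SE; limma, adjusted p = 0.319) was 0.17 without rMANF replicate 1. Hist1h1b, the gene of H1.5, was listed at 0 in vehicle replicate 1 and stood at 1.18 and 1.04 TPM in the other vehicle libraries and 2.29, 1.59 and 1.08 TPM with rMANF. The remaining H1 genes averaged less than 1 TPM, with the testis-specific Hist1h1t listed at 0 in all vehicle libraries and in 1 rMANF library. The annotated Hist1h1c transcript runs 840 bases past its stem-loop. Hist1h4h, the other Hist gene with a match and a mean of 10 TPM or more, ends 46 bases past it.

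The 16 H2A genes of the clusters summed to 17.9, 18.3 and 28.9 with vehicle against 35.5, 32.7 and 28.0 TPM with rMANF. Hist1h2ae led them at 4.82, 9.26 and 7.43 TPM against 7.72, 10.1 and 11.2 TPM (0.41 ± 0.22, adjusted p = 0.340 by limma), with overlapping groups. Hist3h2a, the H2A gene of the small Hist3 cluster, varied little, at 4.10, 4.73 and 4.83 against 5.08, 4.03 and 5.53 TPM, but lies inside the annotated gene Trim17 on the same strand. Hist2h2ac (0.79 ± 0.41) measured 2.48, 0.344 and 0.714 TPM against 4.28, 1.44 and 2.20 TPM, and Hist1h2ab 3.15, 2.65 and 1.83 TPM against 0.456, 6.44 and 1.89 TPM. Hist1h2an had the smallest p of all histone genes: it was listed at 0 in vehicle replicates 1 and 2, stood at 0.896 TPM in replicate 3, and at 4.30, 3.51 and 0.910 TPM with rMANF. Its vehicle mean was 0.299 TPM, so it met the 1 TPM minimum for testing only through the rMANF group. Its log2 difference of 1.53 ± 0.43 (limma, unadjusted p = 0.00800) did not pass the adjusted threshold (adjusted p = 0.128), and the gap between the groups was 0.896 to 0.910 TPM.

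Hist1h2bc held 53.5% to 64.9% of the TPM of the 14 H2B genes. It measured 30.6, 29.7 and 36.7 with vehicle against 44.9, 31.4 and 35.95 TPM with rMANF, with overlap (0.20 ± 0.14; limma, adjusted p = 0.487). Its gene model has 2 exons and no stem-loop match. Hist2h2be, a single-exon transcript of 2620 bases, also held no match and stood at 6.52, 6.44 and 8.89 against 7.32, 7.52 and 7.65 TPM. These were the only 2 Hist genes without a match whose transcript reached 1000 bases. Hist1h2bg stood at 4.66, 2.83 and 2.92 with vehicle against 5.65, 3.70 and 4.78 TPM with rMANF (0.36 ± 0.21), with overlap. Hist1h2bl had an unadjusted p of 0.0331 (1.92, 0 and 2.09 against 4.96, 2.04 and 5.29 TPM; limma, adjusted p = 0.203), and Hist1h2bn was listed at 0 in 2 vehicle libraries and at 2.95 TPM in the other against 1.99, 2.04 and 1.06 TPM with rMANF.

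No H3 gene of the clusters averaged above the 5.62 TPM of Hist1h3g, and cluster H3 mRNA summed to 14.4, 25.2 and 27.9 with vehicle against 31.9, 25.2 and 30.04 TPM with rMANF. Hist1h3g measured 3.05, 1.32 and 5.45 TPM against 7.85, 4.12 and 11.9 TPM, with rMANF replicate 2 inside the vehicle range (1.09 ± 0.43; limma, unadjusted p = 0.0341, adjusted p = 0.205). It was 0.38 without vehicle replicates 1 and 2 together. The other H3 genes tested had overlapping groups. For Hist1h3c (0.472, 3.87 and 2.11 against 2.60, 3.09 and 2.42 TPM), Hist1h3e (0.872, 3.06 and 2.57 against 4.503, 1.46 and 2.51 TPM) and Hist1h3h (0, 2.81 and 2.21 against 0.717, 3.65 and 3.76 TPM) the lowest vehicle value was that of replicate 1 and the differences of 0.39, 0.27 and 0.54 turned to −0.07, −0.07 and −0.06 without it. Hist1h3a differed by −0.19 (1.33, 4.85 and 2.68 against 2.01, 1.35 and 3.79 TPM).

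The H4 genes held the most uneven member. Hist1h4k was listed at 0 in vehicle replicate 1, at 36.9 and 50.2 TPM in vehicle replicates 2 and 3, and at 43.0, 22.1 and 125 TPM with rMANF. Its log2 difference of 2.02 ± 1.40 had a 95% interval of −1.22 to 5.25 (limma, adjusted p = 0.457) and was 0.20 without vehicle replicate 1. The annotated Hist1h4k transcript is 312 bases long and shares 86.2% of its 31-base words with other genes. Hist1h4h was steady at 13.3, 18.4 and 14.96 TPM against 14.4, 18.7 and 18.7 TPM (0.14 ± 0.15). Hist1h4n stood at 1.20, 4.16 and 9.33 TPM against 12.2, 6.19 and 9.54 TPM, a difference of 1.03 that was −0.05 without vehicle replicates 1 and 2 together. Hist1h4a was the one tested H4 gene whose groups did not overlap, at 1.30, 0.949 and 0.982 against 1.31, 1.65 and 2.02 TPM, with 1.304 and 1.312 TPM as the nearest values (0.35 ± 0.20; limma, adjusted p = 0.361). Hist1h4c lay the other way at 1.498, 1.86 and 0.884 against 0.150, 0.300 and 1.83 TPM (−0.56 ± 0.37), with overlap.

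Near-identical copies limit what can be said of single Hist genes. For 36 of the 59, at least 50% of the 31-base words of the annotated transcripts also occur in other genes, and 23 of these 36 were listed at 0 in at least 1 library. Of the 23 genes with less shared sequence 4 were listed at 0 somewhere. The medians of shared words were 77.1% for H2A, 61.9% for H3, 53.5% for H2B, 41.8% for H4 and 3.80% for H1 genes, and 18.2% for the H2af and H3f genes. Hist2h2aa1 and Hist2h2bb (both 100%) were each listed at 0 in 5 libraries. Hist2h3b (100%) was present in all 6 at 1.30 to 2.49 TPM, so full sharing did not always go with zeros. Genes with no match and a short transcript had a median of 89.0% shared words, those running 100 bases or more past the stem-loop 29.3%, so length and sharing cannot be told apart here.

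**Figure D2:**
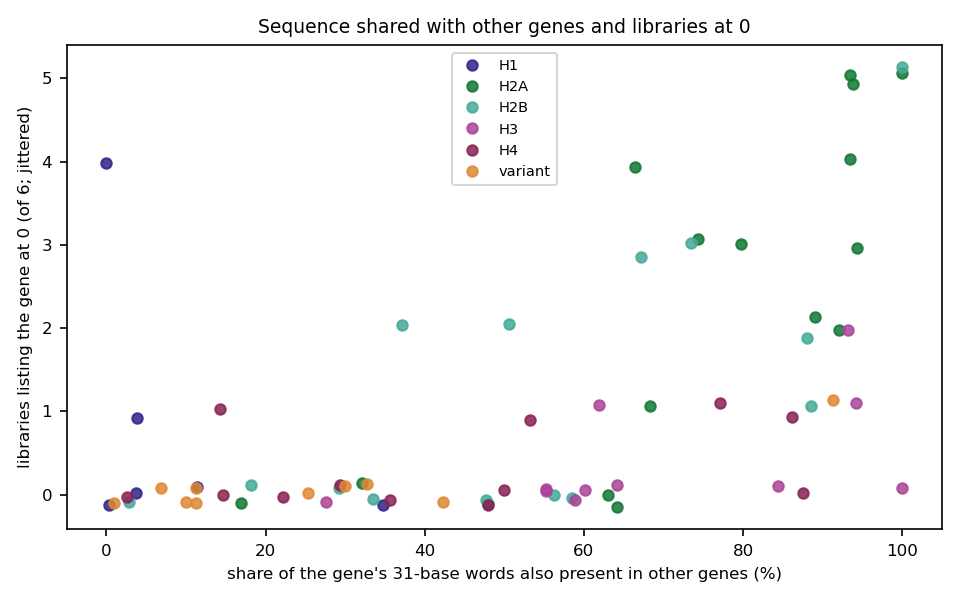
Share of a gene's 31-base words that also occur in other genes (horizontal axis, %) against the number of the 6 libraries that list it at 0 (vertical axis, jittered), colored by histone type. Genes at 0 in 3 or more libraries lie at 66.4% or higher, except the H1 gene Hist1h1t at 0%.

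Values of copies with transcripts of one length show how coarse the low levels are. Hist1h2ai, Hist1h2ak and Hist1h2an are annotated at one length, with no stem-loop match in these gene models. In rMANF replicate 3 all of them stood at 0.910 TPM. In rMANF replicate 2 they stood at 1.76, 1.76 and 3.51 TPM, a ratio of 2.00 between the last and the others, and in vehicle replicate 3 Hist1h2ai was 5.00 times Hist1h2an. Their lowest values above 0 were 0.838, 0.896 and 0.910 TPM in vehicle replicates 1 and 3 and rMANF replicate 3. No read number was derived from these ratios.

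Zeros were uneven across libraries. Of the 59 Hist genes 21, 16 and 9 were listed at 0 in vehicle replicates 1, 2 and 3 and 7, 6 and 9 in rMANF replicates 1, 2 and 3. Of all genes, 4491, 4196 and 4248 were at 0 in the vehicle libraries and 4541, 4438 and 4664 in the rMANF libraries. Vehicle replicate 3 and rMANF replicate 3 thus listed the same number of Hist genes at 0. Hist1h2bf was 0 throughout the vehicle group but 0.490, 1.49 and 1.02 TPM in the rMANF libraries. Hist2h4, at 0.0586, 0.167 and 0.114 against 0.408, 0.584 and 0.414 TPM, was the other Hist gene below the filter whose groups did not overlap, and both were chosen after their values were seen. With no filter on level 4 of the 59 Hist genes had no overlap, where 19.0% of all genes had none.

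Classes of Hist genes by their annotated 3′ end had these levels. The 22 genes whose transcript runs at least 100 bases past the stem-loop had a median of 1.30 TPM and the 20 with a shorter tail a median of 1.57 TPM. The 15 genes with no match and a transcript under 1000 bases had a median of 1.34 TPM. The remaining 2, Hist1h2bc and Hist2h2be, averaged 34.9 and 7.39 TPM. The highest member of each of the larger classes was Hist1h1c (56.5 TPM), Hist1h4h (16.4 TPM) and Hist1h4k (46.2 TPM). The labels do not state whether RNA was selected by poly(A) tail.

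No histone gene passed limma's test between rMANF and vehicle. A mean of at least 1 TPM was required for testing, and 37 of the 59 Hist genes and 7 of the 10 H2af and H3f genes met it. Just above the filter were Hist2h3c2 (1.09 TPM) and Hist1h4c (1.09 TPM), and just below it H3f3c (0.949 TPM) and Hist1h2ad (0.912 TPM). At a Benjamini-Hochberg adjusted p of 0.05 limma called 0 of these 44 genes and 0% of all 12865 genes tested. At an unadjusted p under 0.05 stood 3 Hist genes (Hist1h2an, Hist1h2bl and Hist1h3g, all higher with rMANF), which is 8.11% of those tested, against 20.5% of all tested genes. Among the H2af and H3f genes these were H2afj and H2afx, 2 of 7. Of the 37 tested Hist genes 4, Hist1h2an among them, averaged less than 1 TPM with vehicle and 3 less than 1 TPM with rMANF, so they were tested only through the group where they were higher, and the counts of tested genes are a description.

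Groups without overlap were found for 2 of the 37 tested Hist genes (Hist1h2an and Hist1h4a) and for 2 of the 7 tested variants (H2afj and H2afx), against 28.0% of all tested genes. All 4 lay higher with rMANF, where 18.9% of all tested genes did, and 0 lay lower, where 9.02% did. The share of Hist genes was below the background, also when set beside genes of like level: of the 4915 tested genes averaging 1 to 10 TPM 22.3% did not overlap. The Hist genes of that range were the noisier ones, with a median SE of 0.39 log2 units over 33 genes against 0.19 over all 4915.

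**Figure D3:**
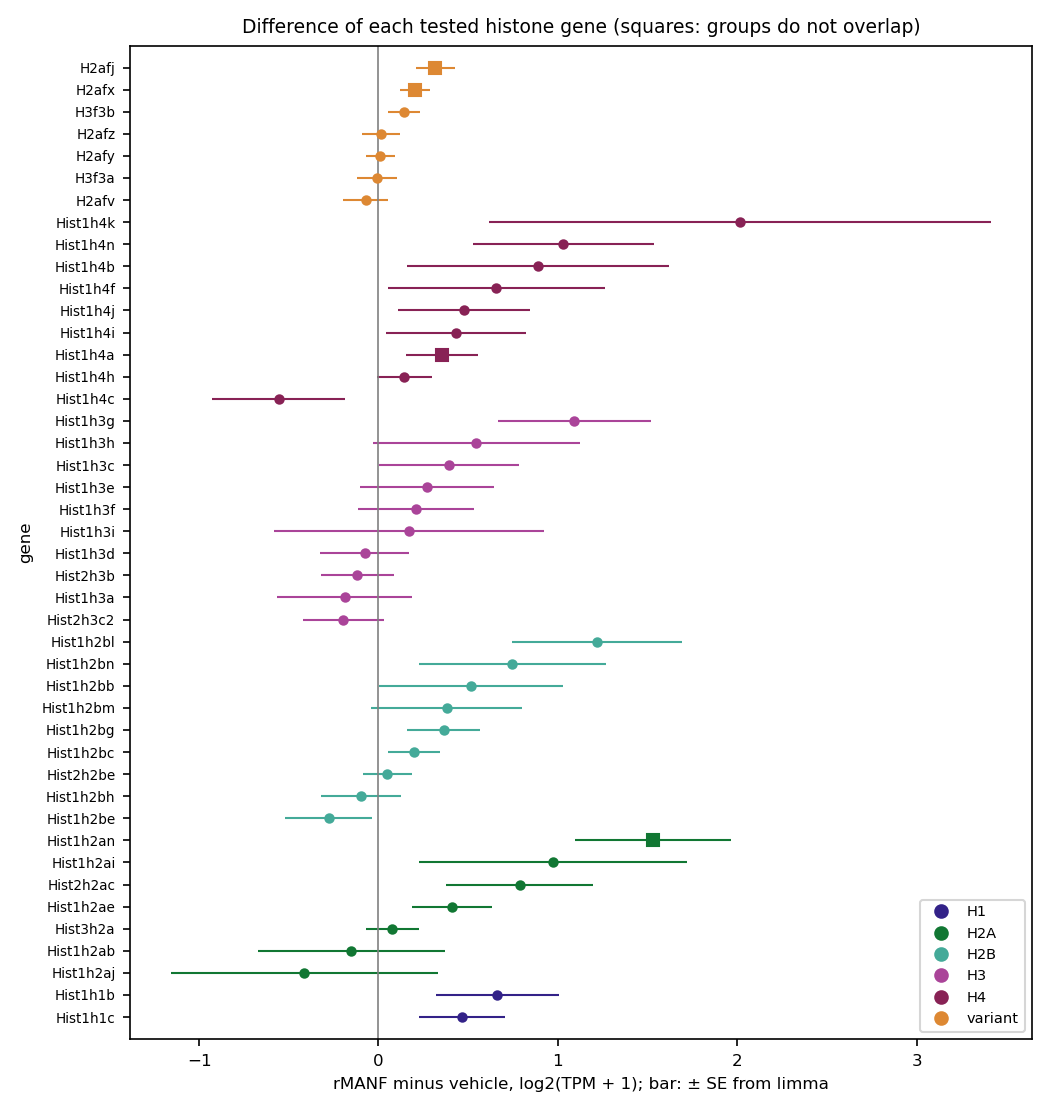
Log2 difference (rMANF minus vehicle, on log2(TPM + 1)) with its SE from limma for each of the 44 tested histone genes, colored by type, with squares where the 3 values of each group do not overlap. The variants' SE is at most 0.13, that of H2afv, and that of the Hist genes runs from 0.14 for Hist2h2be to 1.40 for Hist1h4k.

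As a group the tested Hist genes had a median log2 difference of 0.38, with 28 positive and 9 negative, beside a median of 0.04 and 57.3% positive over all tested genes. By type the median was 0.56 for the 2 tested H1 genes, 0.41 for 7 H2A, 0.36 for 9 H2B, 0.19 for 10 H3 and 0.48 for 9 H4 genes, with 8 of the 9 H4 genes positive. Over all 59 rows, tested or not, the median was 0.21. Leaving out vehicle replicate 1, where Hist genes were most often at 0, gave a median of 0.10 with 21 positive, and the median was 0.01 without vehicle replicates 1 and 2 together. With all 6 libraries it was 0.10 with 23 positive under library weights and 0.17 with a pseudocount of 5 TPM. For the 7 tested variants it was 0.01, with 5 positive and 2 negative, and this sign turned under median-of-ratios scaling (−0.03), with the GC trend removed (−0.03) and after rescaling without mitochondrial and haemoglobin genes (−0.0049). Members were chosen with earlier results known and passed a filter on level, so these medians are a description.

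Summed by type, the groups overlapped for H1, H2A, H2B, H3, H4 and the variants alike. Cluster H4 genes summed to 20.5, 76.8 and 91.2 with vehicle against 86.2, 65.6 and 176 TPM with rMANF, and cluster H2B genes to 47.2, 49.8 and 64.0 against 73.2, 58.8 and 64.6 TPM. Vehicle replicate 1 gave the lowest sum of each of the 5 cluster types. Without Hist1h4k, left out after its values were seen, the Hist genes summed to 142, 188 and 211 with vehicle against 285, 220 and 223 TPM with rMANF, which did not overlap. Summed variants came to 2253 ± 65.3 and 2342 ± 188 TPM (SD, n = 3 each).

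**Figure D4:**
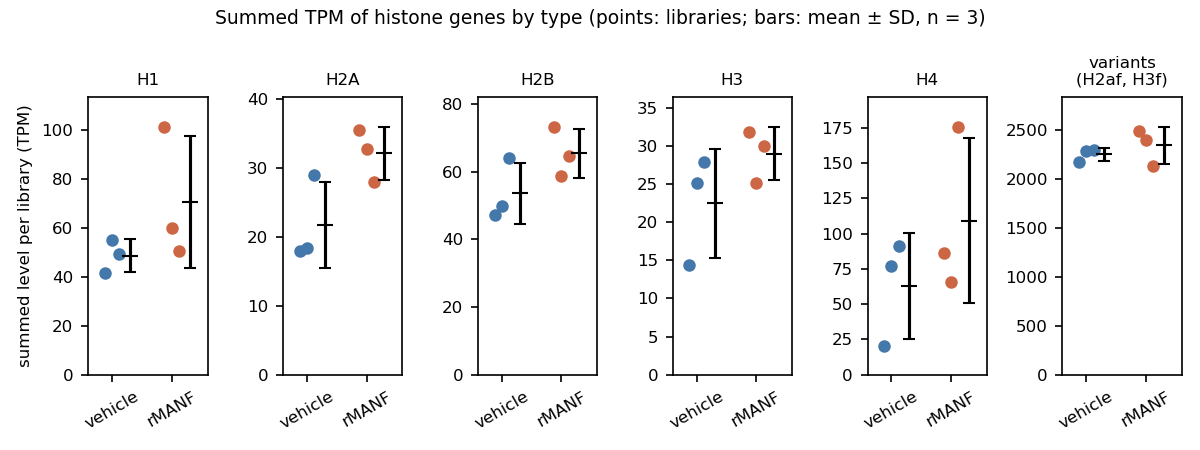
Summed TPM per library (vertical axes start at 0 and differ between panels) for the Hist genes of each type and for the H2af and H3f genes, with points for libraries and bars for mean ± SD of 3. Vehicle replicate 1, drawn first in each panel, is the lowest library for all 5 cluster types, and groups overlap in every panel.

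Genes that act on histone mRNA and histone protein were read from the same fit, by lists chosen for known roles. Adjusted over all genes, 0 members of any of these lists passed limma's 0.05 threshold. With library weights limma called 737 of the 12865 tested genes. Among them were 6 of the genes named below, with adjusted p of 0.0266 for E2f4, 0.0288 for Mcm5, 0.0325 for Cdt1, 0.0410 for Ruvbl1, 0.0447 for Ncbp2 and 0.0458 for Sympk. Most genes named below were picked for the smallest p of their list in the same libraries, so this count is a description. Of the 24 genes with rows among 26 listed for histone mRNA processing and decay 3 lay higher and 2 lower at an unadjusted p under 0.05, beside 13.9% higher and 6.63% lower of all tested genes. Slbp, whose product binds the stem-loop, measured 71.4, 63.6 and 60.7 with vehicle against 58.3, 66.8 and 54.5 TPM with rMANF, overlapping (−0.12 ± 0.11; limma, adjusted p = 0.558). Ncbp2, the small cap-binding subunit, lay lower without overlap at 33.1, 35.6 and 30.2 against 23.3, 25.6 and 20.2 TPM (−0.50 ± 0.11; limma, adjusted p = 0.0986), and Sympk, the scaffold of the cleavage complex, higher at 40.4, 36.5 and 40.8 against 54.8, 51.5 and 46.9 TPM (0.37 ± 0.09; adjusted p = 0.112). Cstf2t, a paralogue of a cleavage stimulation subunit, stood at 2.42, 2.63 and 2.56 against 1.59, 1.86 and 1.20 TPM. Groups did not overlap for 8 of the 24 genes (6 higher, 2 lower), 33.3% against 28.0% of all tested genes.

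Of the 19 genes of histone gene transcription 3 lay higher and 0 lower at an unadjusted p under 0.05 (limma), 15.8% against 20.5% of all tested genes. Npat, the coactivator of histone genes at the S phase boundary, measured 13.7, 8.68 and 10.1 with vehicle against 10.5, 12.3 and 12.1 TPM with rMANF, with overlap (0.11 ± 0.16; limma, adjusted p = 0.739). E2f1, an activator of S phase genes, measured 23.3, 25.5 and 28.8 against 33.2, 34.0 and 38.3 TPM (0.43 ± 0.11; limma, adjusted p = 0.111), and E2f4 78.6, 63.7 and 63.2 against 86.9, 84.9 and 87.9 TPM (0.34 ± 0.10; adjusted p = 0.138). Coil, the scaffold of Cajal bodies, lay higher by 0.29 ± 0.13. These 3 genes, picked for the smallest p of their list, had no overlap between groups. Over the whole list 5 of 19 genes had none, 26.3% against 28.0% of all tested genes.

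Among the 32 tested histone chaperones and exchange factors 7 lay higher and 1 lower at an unadjusted p under 0.05 (limma). That is 25% against 20.5% of all tested genes. Groups did not overlap for 14 of the 32 (12 higher, 2 lower), 43.8% against 28.0% of all tested genes. Parts of the machinery that places H2A.Z in nucleosomes were the 3 of smallest p, in both directions: Ruvbl1 (76.8 ± 3.18 and 91.0 ± 1.05 TPM) and Vps72 (43.3 ± 5.19 and 54.0 ± 3.82 TPM) higher, and Znhit1 (57.2 ± 1.98 and 47.8 ± 4.02 TPM) lower (SD, n = 3 each), each without overlap and with limma adjusted p of 0.142, 0.173 and 0.173. Of the 36 replication genes 4 lay higher and 2 lower at that threshold, 16.7% against 20.5% of all tested genes. They were led by Mcm5 of the replicative helicase (54.0 ± 3.56 and 72.2 ± 1.30 TPM; 0.41 ± 0.08; adjusted p = 0.0893) and the licensing factor gene Cdt1 (81.9 ± 4.53 and 105 ± 4.72 TPM; 0.36 ± 0.08). Summed, the replication genes came to 1779 to 1906 with vehicle against 1859 to 1928 TPM with rMANF.

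Of 4 listed histone genes outside the symbol rule H1f0 and Cenpa were abundant, while H1fx and H1foo averaged 0.296 and 0.449 TPM. H1f0, a linker histone gene outside the clusters known from cells that have stopped dividing, measured 190, 228 and 234 with vehicle against 308, 303 and 245 TPM with rMANF, with no overlap (0.39 ± 0.12; limma, unadjusted p = 0.0128, adjusted p = 0.146), and exceeded Hist1h1c in every library. Cenpa, the centromeric H3 variant gene, measured 139, 154 and 168 against 162, 164 and 148 TPM (0.05 ± 0.09). Of 30 RNAs without a poly(A) tail 5 had rows. Rpph1, the RNA of ribonuclease P, ranged from 45.4 to 103 TPM among vehicle libraries and from 77.4 to 241 TPM among rMANF libraries, and Rn7sk, a small nuclear RNA that restrains transcription elongation, from 88.0 to 120 and from 91.3 to 117 TPM. Terc, the telomerase RNA, averaged 2.11 and 1.31 TPM, and Scarna10 was listed at 0 in 2 rMANF libraries. Rpph1 and Hist1h4k shared their highest library, rMANF replicate 3. Among the vehicle libraries, however, Rpph1 was highest in replicate 1, where Hist1h4k was listed at 0.

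**Figure D5:**
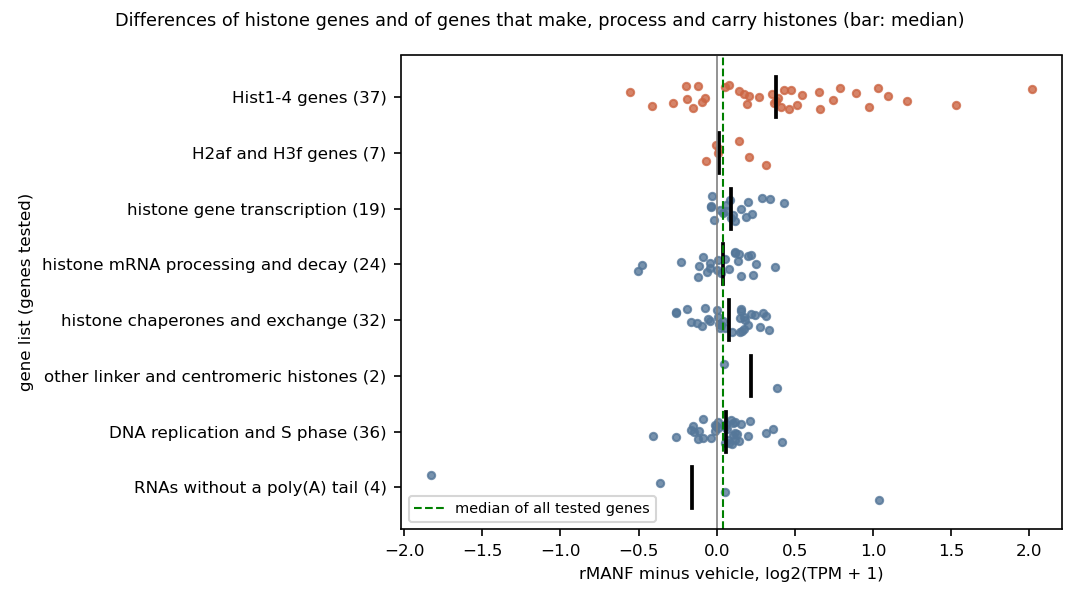
Log2 differences (rMANF minus vehicle, on log2(TPM + 1)) of the tested Hist genes, the tested H2af and H3f genes and the tested genes of 6 related lists, with bars at list medians and a dashed line at the median of all tested genes (0.04). The Hist genes spread from −0.56 to 2.02, and the variants from −0.07 to 0.32.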

How the data were processed

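The authors deposited log2 TPM per gene and library in 1 table. Salmon 0.14.1, HTSeq 0.11.0, cutadapt, fastp and build mm10 are named in the submitters' processing notes, which do not say which tool gave the values. Neither the handling of reads shared by near-identical genes nor poly(A) selection is given in the sources used here. Per the labels' protocols libraries were made with Nextera XT, which does not mark strand. Column names of the vehicle samples begin with IgG. A deposited value of −9 was taken as 0 TPM. TPM keeps no depth, so no counting interval was computed and precision is that of the spread between libraries. The table held 0 columns of other samples.

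The 12865 genes averaging 1 TPM or more were compared on log2(TPM + 1), rMANF minus vehicle, with limma 3.58.1 in R 4.3.3 (mean trend, two-sided, Benjamini-Hochberg over all tested genes, threshold 0.05). This scale understates changes of low genes. An exact permutation test of 3 against 3 libraries cannot go below p = 0.1. The fit was tested on simulated data. The members and lists were chosen with earlier results of these data known. The genes given with values are, per histone type, the 3 of highest mean and the 3 of smallest p among those tested, 7 variant genes in any case, and the 3 of smallest p of each related list with Slbp and Npat. 1 gene that this rule names is not reported here. Others were chosen after their values were seen. Coordinates, transcripts, the stem-loop search and shared 31-base words came from GENCODE M21 on GRCm38, in which all 69 genes matched by symbol. Words were compared on both strands with all transcripts of other genes. Transcript GC content and length were found for 99.3% of the table's genes. Alternatives were other pseudocounts, filters, scalings, variance settings and library weights, the replicate block, each library left out, GC and length trends removed (loess, span 0.5), and, added after seeing the data, leaving out vehicle replicates 1 and 2 together. The last sets 1 vehicle library against 3 rMANF libraries, so the vehicle group has no spread there.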

Additional observations from a re-analysis of the deposited data

How the results depend on the processing

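Under all 21 alternatives limma called 0 of the tested Hist genes and 0 of the tested H2af and H3f genes. Calls over all genes rose from 0 to 737 with library weights, 3 with the replicate block, 9 with the replicate block and GC trend removed, 13 without vehicle replicates 1 and 2 together, and 0 to 4 with 1 library left out. Library weights were the only setting under which named related genes passed, 6 of 19. Most of these 19 were picked for the smallest p of their list in the same libraries, so this count is a description. Over all genes 737 of 12865 passed there. Same-numbered libraries correlated at −0.069, 0.029 and 0.049 in their deviations, so the numbers were not taken as pairs. The median of the Hist genes was 0.0127 without vehicle replicates 1 and 2 together and 0.0979 to 0.4524 with 1 library left out, and that of the variants 0.0054 to 0.1026. Hist genes without overlap numbered 4 with no filter (19.0% of all genes), 0 with a filter at 5 TPM (30.3%), 1 after rescaling (27.2%), 4 with the length trend removed (28.3%), 17 without vehicle replicates 1 and 2 together (59.8%) and 5 to 10 with 1 library left out (34.6% to 45.0%). With the GC trend removed, with or without the replicate block, there was 1 (25.8%), and it lay lower with rMANF, against 2 higher and 0 lower before that correction. Variants without overlap numbered 4 of 10 with no filter (19.0% of all genes) and 1 of 7 with median-of-ratios scaling (29.8%). They numbered 0 of 7 with the GC trend removed with or without the block (25.8%) and 6 of 7 without vehicle replicates 1 and 2 together (59.8%). With 1 library left out they numbered 2 to 4 of 7 (34.6% to 45.0%). Without vehicle replicates 1 and 2 together 1 vehicle library remains, so no overlap there means only that its value lies outside the rMANF range. Of all genes without overlap 67.7% were higher with rMANF, 55.8% under median-of-ratios and 58.7% under quantile scaling.

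Of 48 named genes 31 kept their sign under every setting. The log2 difference turned to 0.0041 for Hist1h2ab with a pseudocount of 5 TPM, to −0.0287 for H2afy and −0.0257 for H2afz under median-of-ratios scaling, and to −0.0206, −0.0112 and 0.0339 for H2afy, H2afz and H3f3a under quantile normalization. Rescaling gave −0.0082 for H2afy and −0.0049 for H2afz. Library weights gave −0.0467 for Cenpa, 0.029 for H2afv, −0.0399 for H2afy, −0.01 for H2afz, −0.1352 for Hist2h2be and 0.1619 for Terc. With the GC trend removed, with or without the replicate block, H2afx stood at −0.0547, H2afy at −0.0398 and H2afz at −9e-04, and with the length trend removed H3f3a stood at 0.0328. Without vehicle replicates 1 and 2 together the values were −0.0838 for Cenpa, 0.0507 for H2afv, −0.0689 for H2afy, −0.021 for H2afz, 0.1521 for Hist1h2ab, −0.0213 for Hist1h4k, −0.0473 for Hist1h4n, −0.2194 for Hist2h2be and 0.4379 for Terc. With 1 library left out the differences ran from −0.0247 to 0.1099 for Cenpa, −0.1561 to 0.0754 for H2afv, −0.0447 to 0.0497 for H2afy, −0.0559 to 0.1026 for H2afz, −0.0642 to 0.0984 for H3f3a, −0.7731 to 0.4041 for Hist1h2ab, −0.5187 to 0.1449 for Hist1h3a, −0.0739 to 0.7886 for Hist1h3c, −0.072 to 0.5494 for Hist1h3e, −0.0574 to 1.0294 for Hist1h3h, −0.0215 to 0.1842 for Hist2h2be, −0.0026 to 0.1859 for Hist3h2a and −0.018 to 0.2832 for Npat. The cause of these changes was not tested. Depth is unknown, and 33 of the 37 tested Hist genes averaged 1 to 10 TPM, where their median SE was 0.389.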
